A study of Mus musculus with 16 samples.

Results

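In the mouse hippocampus, 9 genes of neurotrophin signalling were followed: the ligands Bdnf and Ntf3, the receptors Ntrk2, Ntrk3 and Ngfr, the sorting receptors Sort1 and Sorcs3, and the transcriptional regulators Creb1 and Crtc1. They were found by their names in a table of 22572 gene names, in which 8 of the 9 had an entry of their own. Ntrk3 was listed only in an entry merged with E430016F16Rik, and the reads of these genes could not be separated. That entry is called the Ntrk3 entry below. All 9 entries passed the filter of a mean of at least 1 FPKM (fragments scaled by transcript length and by the mapped fragments of the library) that left 12648 genes for testing.

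Neurotrophins are secreted as proneurotrophins that are cleaved to mature growth factors. Brain-derived neurotrophic factor, encoded by Bdnf, and neurotrophin-3, encoded by Ntf3, act through the receptor tyrosine kinases TrkB and TrkC, the products of Ntrk2 and Ntrk3, which signal through the Ras-MAPK, PI3K-Akt and phospholipase C pathways. Ngfr encodes p75, a receptor shared by the neurotrophins. Sort1 encodes sortilin, which binds proneurotrophins and sorts BDNF in the cell, and Sorcs3 encodes a neuronal protein of the same receptor family that is found at synapses. Creb1 encodes CREB, which is phosphorylated downstream of TrkB and of calcium and binds cyclic AMP response elements, and Crtc1 encodes a coactivator that enters the nucleus with neuronal activity. In the hippocampus this signalling is known for its part in synaptic plasticity and memory, and Bdnf is itself a target of CREB.

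RNA was sequenced from the hippocampus of male C57BL/6 mice, with 16 libraries that make 4 groups of 4. One genotype was wild type (WT), and the other lacked Bgn (Bgn0/- in the labels, BgnKO here), the X-linked gene for biglycan, a small proteoglycan of the extracellular matrix. They drank regular water or 15% (w/v) fructose for 6 weeks from 3 months of age. The comparisons address the knockout on each drink, the drink in each genotype, and whether one depends on the other. The deleted stretch of Bgn is not described in the sources at hand. Whether the libraries of a group came from different animals is not stated in the labels, and the p-values reflect only how much these libraries varied, which may be technical. In whole tissue, fewer cells of a type and less RNA per cell cannot be told apart.

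Libraries held 12343 to 12885 named genes at 1 FPKM or more, and the table gives no read depth. Bgn was 9.94, 11.7, 17.7 and 24.2 FPKM in WT water, 5.42, 20.7, 21.2 and 17.2 in WT fructose, 4.46 to 7.60 in BgnKO water and 5.02 to 7.11 in BgnKO fructose. The library labelled WT fructose replicate 1 thus had Bgn in the BgnKO range. Its Ndufs5, a gene chosen after its values were seen, was 13.96 FPKM, against 9.82 to 13.7 in the other WT libraries and 0 to 0.216 in BgnKO. The 4 libraries numbered 1 stood apart from the others within their groups. Over all tested genes, the root mean square log2 difference from replicate 1 to the other replicates was 0.318 to 0.344 in WT water, 0.363 to 0.380 in WT fructose, 0.302 to 0.378 in BgnKO water and 0.354 to 0.459 in BgnKO fructose. Among replicates 2 to 4 of the same group it was at most 0.235, 0.201, 0.268 and 0.312. Values are therefore also given with a term for replicate 1 in the model. Neuronal and hippocampal markers were well expressed (Snap25 at 1305 FPKM, Neurod6 at 131.7), whereas cholinergic basal forebrain markers summed to at most 5.54 FPKM in any library.

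The 9 genes differed widely in level. Sort1 was the highest at 109.4 ± 7.54 FPKM (SD, n = 16 libraries), followed by Ntrk2 at 101.7 ± 14.2 and Crtc1 at 65.0 ± 14.5. The Ntrk3 entry stood at 32.7 ± 3.25 FPKM, and its range did not overlap that of Crtc1 above it or of Bdnf below it. Bdnf (9.86 ± 2.05), Sorcs3 (8.53 ± 0.979), Creb1 (8.10 ± 1.41) and Ntf3 (6.24 ± 0.732) formed a run in which each gene overlapped the next, and Ngfr was lowest at 1.14 ± 0.550 FPKM. Ntrk2 and Sort1 thus stood above both ligand genes, on a scale that corrects for transcript length, while Sorcs3 and Ngfr did not. Ngfr exceeded only 1.72% of the tested genes in mean level, and its libraries differed by a factor of 4.01 from lowest to highest. Levels also moved with the replicate number: the mean of the replicate 1 libraries was 1.39 times that of the other 12 for Creb1 and 1.35 times for Bdnf, but 0.796 times for Ntrk2, 0.636 times for Crtc1 and 0.519 times for Ngfr.

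**Figure D1:**
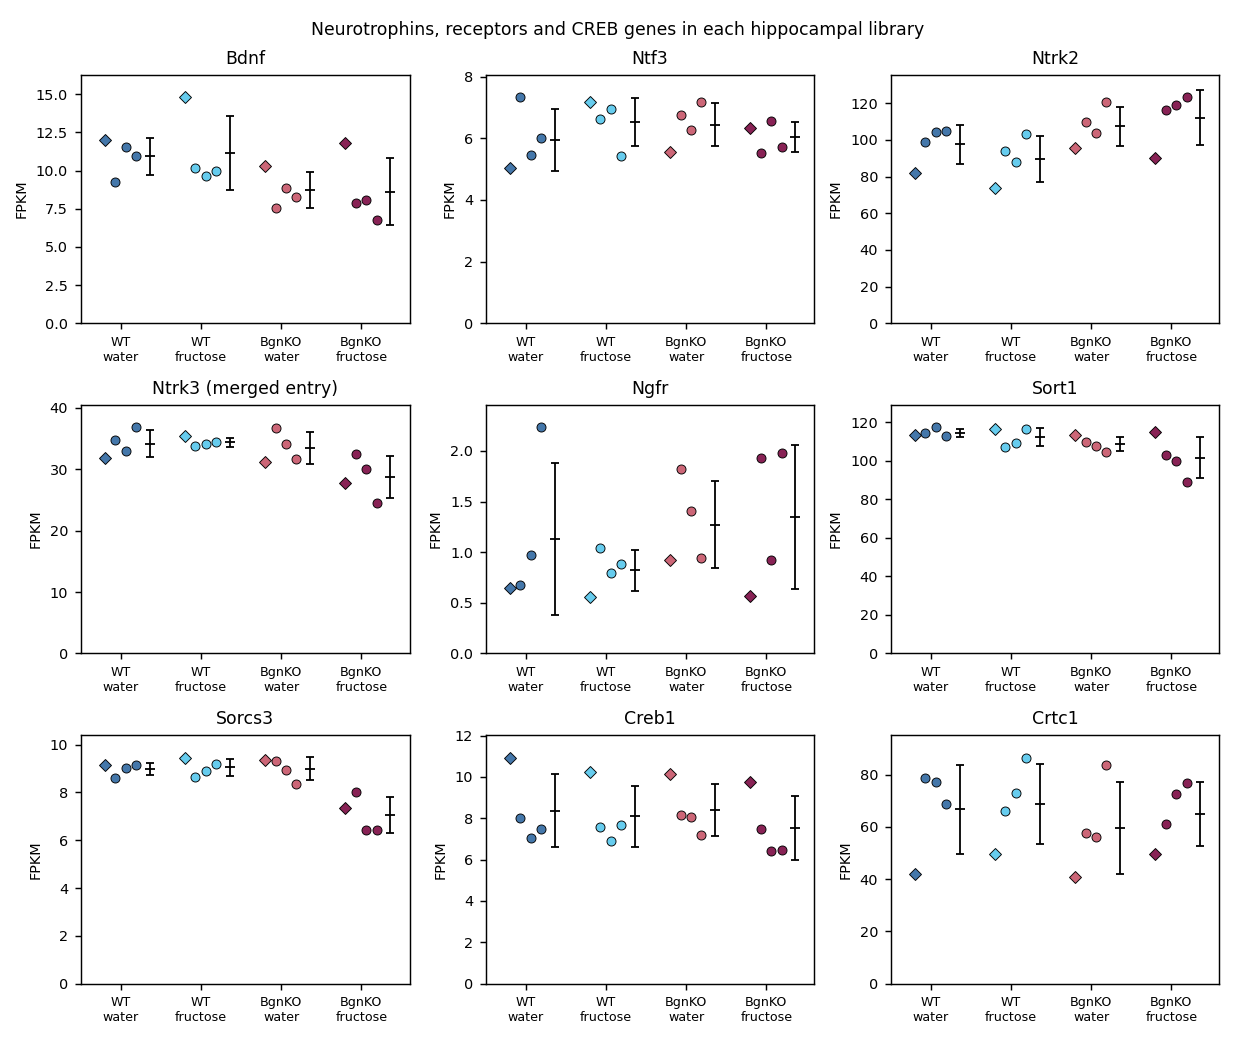
FPKM (y axis) of each gene in the 4 libraries of each group (x axis). Diamonds are replicate 1, circles replicates 2 to 4 from left to right, and the bar at the right of each group is the mean with its SD. All 4 BgnKO fructose libraries lie lowest for Sorcs3 (6.44 to 8.01 FPKM), while Bdnf is lower in BgnKO within the diamonds and within the circles.

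Bdnf (chr2:109674700-109727007, plus strand, GRCm38) was 11.98, 9.25, 11.5 and 10.96 FPKM in the WT water libraries and 14.8, 10.2, 9.65 and 9.99 in WT fructose. It was 10.3, 7.54, 8.88 and 8.26 FPKM in BgnKO water and 11.8, 7.88, 8.07 and 6.74 in BgnKO fructose. Replicate 1 was the highest library in every group, and within replicate 1 and within replicates 2 to 4 every BgnKO library lay below every WT library. Over both drinks the mean was 8.68 ± 1.63 FPKM in BgnKO and 11.05 ± 1.79 in WT (SD, n = 8 each), a log2 difference of -0.32 (SE 0.11) that did not pass limma's test over all genes (adjusted p = 0.0997, BgnKO lower than the WT mean in 7 of 8 libraries). With a term for replicate 1 the same difference passed (limma adjusted p = 0.00374). Among replicates 2 to 4 the means were 7.90 ± 0.720 FPKM in BgnKO and 10.3 ± 0.852 in WT (n = 6 each), and the 2-sided exact permutation p was 0.00216, the smallest that 6 against 6 libraries allow. This last test was chosen after the values were seen. Of all tested genes, 5.81% had no overlap between the genotypes in replicates 2 to 4, and 3.15% had none there nor in replicate 1 in the same direction.

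The log2 difference of Bdnf between genotypes was -0.29 (SE 0.15) on water and -0.34 (SE 0.15) on fructose, and neither passed limma's test (adjusted p = 1 and 0.206). On fructose it passed with a term for replicate 1 (adjusted p = 0.0176). When replicate 1 of WT fructose and replicate 4 of BgnKO fructose were both left out it was -0.11 (adjusted p = 0.708), and -0.22 with the term (adjusted p = 0.175). The drink made no difference that passed: fructose minus water was 0.01 in WT (95% interval -0.31 to 0.34) and -0.04 in BgnKO (-0.36 to 0.29) on the log2 scale.

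Bdnf is transcribed from several starts that each splice to the shared coding exon, and FPKM sums them. RefSeq (GRCm38.p6) gives 7 start windows, of which only the third held TGACG, the short core of the cyclic AMP response element, read on both strands in the 250 bases before the start. Its sequence on the plus strand is shown because Bdnf is a known CREB target, with the core in capitals, here as CGTCA 35 bases before the start, at chr2:109692186-109692435.
Bdnf: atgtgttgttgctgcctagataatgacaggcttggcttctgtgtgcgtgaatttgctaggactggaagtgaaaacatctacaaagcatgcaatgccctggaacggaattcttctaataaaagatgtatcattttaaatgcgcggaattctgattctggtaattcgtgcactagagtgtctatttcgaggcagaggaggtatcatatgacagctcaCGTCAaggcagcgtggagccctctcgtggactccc
Of the 32851 such windows of all genes, 17.8% held the core and 1.55% the full element TGACGTCA, which contains it. None of the windows of Ntf3, Ntrk2, Ngfr, Sorcs3, Creb1 or Crtc1 held either. The table has no window for Ntrk3 or Sort1.

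Ntf3 (chr6:126101412-126166910, minus strand) ranged from 5.02 to 7.33 FPKM over the 16 libraries. All group pairs overlapped. Its group means were 5.95 ± 1.00 in WT water, 6.54 ± 0.778 in WT fructose, 6.43 ± 0.696 in BgnKO water and 6.03 ± 0.491 in BgnKO fructose (SD, n = 4 each). Over both drinks the genotypes differed by 0.00 on the log2 scale (95% interval -0.16 to 0.16).

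Ntrk2 (chr13:58806569-59133970, plus strand) differed between genotypes in the opposite direction to its ligand gene Bdnf. It was 82.2, 98.7, 104.4 and 104.8 FPKM in WT water and 73.7, 94.2, 87.8 and 103.2 in WT fructose. It was 95.3, 109.9, 103.8 and 120.6 FPKM in BgnKO water and 90.0, 116.1, 118.9 and 123.3 in BgnKO fructose. Replicate 1 was the lowest library of each group, and BgnKO fructose overlapped WT fructose through its replicate 1, at 90.0 FPKM. Over both drinks Ntrk2 averaged 109.8 ± 12.3 FPKM in BgnKO and 93.6 ± 11.5 in WT (SD, n = 8 each), a log2 difference of 0.23 (SE 0.09) with a limma adjusted p of 0.135, and of 0.00280 with a term for replicate 1. On fructose alone the difference was 0.32 (SE 0.12), higher than the WT mean in 4 of 4 libraries, with an adjusted p of 0.144, and of 0.00432 with the term. Without WT fructose replicate 1 and BgnKO fructose replicate 4 it was 0.18 (adjusted p = 0.504), and 0.28 with the term (adjusted p = 0.0474). On water it was 0.14 (SE 0.12, adjusted p = 1). GENCODE annotates 5 complete protein lengths for Ntrk2, from 466 to 821 residues. Full-length TrkB carries the kinase domain and truncated forms lack it, and gene-level FPKM does not separate them.

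Truncated TrkB is the main form in astrocytes, so astrocyte markers are given beside Ntrk2. All 15 were higher in BgnKO fructose than in WT fructose, and 4 of them rose (Fgfr3, Gja1, Gfap and Aqp4, log2 0.42 to 0.62), with a median of 0.42 against -0.01 over all tested genes. Of all tested genes, 1.63% rose in this comparison. Their summed level was 1491 to 1615 FPKM in WT fructose and 1674 to 2297 in BgnKO fructose, and none of the 15 was at 0. The 11 microglial markers were also all higher, with a median of 0.36. On water, 13 of the 15 astrocyte and 9 of the 11 microglial markers were higher in BgnKO, with medians of 0.11 and 0.12. Within BgnKO, all markers of both lists were higher on fructose than on water, with medians of 0.23 and 0.31. In these comparisons 0 of them passed. The 14 markers of meninges and fibroblasts were all higher in BgnKO on water, on fructose and over both drinks, with medians of 0.42, 0.47 and 0.44, and 0 passed (3 rose on fructose and 4 over both drinks with a term for replicate 1). With the term, 17.3% of all tested genes passed on fructose and 18% over both drinks, in either direction. Their summed level was 122.1 to 237.8 FPKM in WT water, 202.1 to 267.0 in BgnKO water, 39.2 to 192.4 in WT fructose and 89.4 to 431.4 in BgnKO fructose, and none was at 0. The part of these markers in the differences of Ntrk2 and of the other 8 genes was not tested.

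The Ntrk3 entry (Ntrk3 at chr7:78175959-78738012, minus strand) was 31.8, 34.9, 33.0 and 36.8 FPKM in WT water and 35.4, 33.8, 34.1 and 34.4 in WT fructose. It was 31.2, 36.8, 34.2 and 31.7 FPKM in BgnKO water and 27.7, 32.5, 30.1 and 24.5 in BgnKO fructose. The 4 BgnKO fructose libraries lay below all 4 WT fructose libraries and overlapped BgnKO water. The log2 difference between genotypes on fructose was -0.26 (SE 0.08), with a limma adjusted p of 0.0793, and of 0.0282 with a term for replicate 1. Without WT fructose replicate 1 and BgnKO fructose replicate 4 it was -0.18 (adjusted p = 0.304), and -0.13 with the term (adjusted p = 0.228). The exact permutation p was 0.0286, the smallest that 4 against 4 libraries allow, and 11.04% of tested genes did not overlap in this comparison. On water the difference was -0.03 (95% interval -0.20 to 0.14).

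Ngfr (chr11:95568818-95587735, minus strand) was 0.647, 0.676, 0.972 and 2.23 FPKM in WT water and 0.557, 1.04, 0.791 and 0.888 in WT fructose. It was 0.926, 1.82, 1.40 and 0.941 FPKM in BgnKO water and 0.567, 1.93, 0.924 and 1.98 in BgnKO fructose. The highest library was in WT water and the lowest in WT fructose, and all groups overlapped. Over both drinks the log2 difference between genotypes was 0.23 (95% interval -0.12 to 0.57).

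Sort1 (chr3:108284082-108361511, plus strand) was 113.5, 114.3, 117.5 and 112.7 FPKM in WT water and 116.5, 107.4, 109.6 and 116.6 in WT fructose. It was 113.4, 110.1, 107.8 and 104.5 FPKM in BgnKO water and 115.3, 103.3, 99.8 and 88.8 in BgnKO fructose. The lowest 2 libraries were BgnKO fructose, and the groups overlapped. Over both drinks the log2 difference between genotypes was -0.11 (SE 0.05), with a limma adjusted p of 0.217. The exact permutation p over 8 against 8 libraries was 0.0163, not adjusted over the 9 genes.

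Sorcs3 (chr19:48206025-48805505, plus strand) was the one gene of the 9 that passed limma's test over all genes without a term for replicate 1. It was 9.16, 8.60, 9.02 and 9.16 FPKM in WT water, 9.46, 8.66, 8.91 and 9.18 in WT fructose, and 9.37, 9.33, 8.94 and 8.37 in BgnKO water. In BgnKO fructose it was 7.36, 8.01, 6.45 and 6.44 FPKM, below all 12 libraries of the other groups, as was the case for 0.806% of tested genes. Sorcs3 fell in BgnKO fructose against WT fructose, from 9.05 ± 0.343 to 7.06 ± 0.762 FPKM (SD, n = 4 each), by 22.0%, with a log2 difference of -0.32 (SE 0.07) seen in 4 of 4 libraries and a limma adjusted p of 0.0171. With a term for replicate 1 the adjusted p was 0.00369. Without WT fructose replicate 4, BgnKO fructose replicate 3 or BgnKO fructose replicate 4 it was 0.0582, 0.0542 and 0.0578, and a fit of the 8 libraries of these groups alone gave 0.111. Without replicate 1 of WT fructose and replicate 4 of BgnKO fructose together it was 0.108, and 0.0421 when the term was added.

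On water the genotypes had nearly the same mean Sorcs3, 9.003 FPKM in BgnKO and 8.986 in WT, with a log2 difference of 0.00 (95% interval -0.14 to 0.14). Within BgnKO, fructose minus water was -0.31 (SE 0.07) on the log2 scale without overlap between the groups, but the adjusted p was 0.318, and 3.99% of tested genes did not overlap in this comparison. The test of the difference between the genotypes' responses to fructose gave -0.32 (SE 0.09, unadjusted p = 0.00353, limma adjusted p = 0.999), so a fructose response particular to BgnKO did not pass over all genes. Neuronal markers, given here because Sorcs3 is a neuronal gene, summed to 3263 to 3721 FPKM in WT fructose and to 3185, 3206, 3287 and 2584 in BgnKO fructose, and 9 of 10 were lower (median -0.16, 0 called). The 12 choroid plexus markers were all higher, with a median of 1.09 and sums of 320.1 to 4905 against 2917 to 10208 FPKM, and none was called. The part of these markers in the Sorcs3 difference was not tested.

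Among the 3 other sortilin family genes, Sorl1 was closest to Sorcs3 in direction, with 33.4 ± 3.85 FPKM in BgnKO fructose and 40.5 ± 2.96 in WT fructose (log2 -0.28, SE 0.09, adjusted p = 0.0849). Sorcs1 and Sorcs2 gave log2 differences of 0.11 and -0.01. None of the 3 passed the test. With a term for replicate 1 Sorl1 fell on fructose (adjusted p = 0.0194) and over both drinks (log2 -0.17, adjusted p = 0.0322).

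Creb1 (chr1:64532645-64604548, plus strand) was 10.9, 8.001, 7.06 and 7.48 FPKM in WT water, 10.2, 7.57, 6.88 and 7.67 in WT fructose, 10.2, 8.16, 8.08 and 7.19 in BgnKO water, and 9.74, 7.503, 6.43 and 6.47 in BgnKO fructose. Replicate 1 was the highest library of every group by far, and the groups otherwise overlapped. The genotypes differed by -0.04 on the log2 scale over both drinks (95% interval -0.27 to 0.18).

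Crtc1 (chr8:70382355-70439579, minus strand) was 42.0, 78.9, 77.2 and 68.9 FPKM in WT water, 49.6, 66.2, 73.0 and 86.5 in WT fructose, 40.8, 57.7, 56.2 and 83.6 in BgnKO water, and 49.5, 61.0, 72.5 and 76.9 in BgnKO fructose. Here replicate 1 was the lowest library of each group. The interval of the genotype difference was wide, from -0.47 to 0.23 on the log2 scale over both drinks.

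In all, 1 of the 9 genes passed limma's test in BgnKO against WT on fructose, where 3.76% of all tested genes passed (2.13% lower and 1.63% higher). None of the 9 passed in the other comparisons. On water 0.387% of all genes passed, and 0 of the 9 had an unadjusted p under 0.05. For fructose against water the shares of all genes were 0.00791% in WT and 0% in BgnKO, with 0 and 2 of the 9 under 0.05 unadjusted. For the interaction the share was 0.00791%, with 1 of the 9 under 0.05 unadjusted, and over both drinks it was 4.99%, with 5 of the 9. An unadjusted p under 0.05 was found for 5.33% of all tested genes on water. For the drink in WT and in BgnKO this share was 2.08% and 12.9%, for the interaction 2.91% and over both drinks 21.1%. By exact permutation 0 of the 9 were under 0.05 on water and in WT for the drink, 1 in BgnKO for the drink, 2 between the genotypes on fructose and 5 over both drinks. With 4 against 4 libraries, only groups without overlap fall under 0.05. This was so for 3.99% of all tested genes for the drink in BgnKO and 11.04% between the genotypes on fructose. Over both drinks no share of all genes was computed by this test. With a term for replicate 1, 4 of the 9 passed on fructose (Bdnf, the Ntrk3 entry and Sorcs3 lower, Ntrk2 higher) and 3 over both drinks (Bdnf, Ntrk2 and Sorcs3), where 17.3% and 18% of all tested genes passed. On water 0 of the 9 passed with the term, and 0.996% of all genes passed. There 2 of the 9 had an unadjusted p under 0.05, as did 10.6% of all tested genes.

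**Figure D2:**
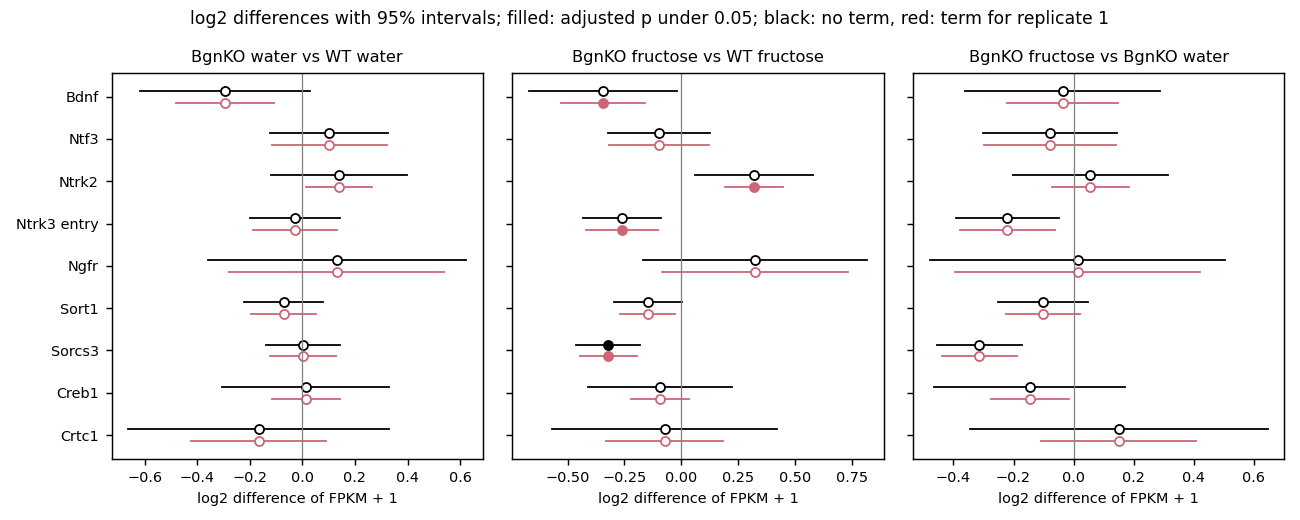
log2 difference of FPKM + 1 (x axis) of each gene in 3 comparisons, with 95% intervals from limma. Black is the model of 4 group means, red adds a term for replicate 1, and filled points have an adjusted p under 0.05. Sorcs3 is filled in both models on fructose, and Bdnf, Ntrk2 and the Ntrk3 entry with the term only.

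How the genes varied together was examined over the 36 pairs, on log2(FPKM + 1) with the mean of the replicate 1 libraries and that of the other 12 subtracted separately. Group means were not subtracted, so differences between the genotypes and drinks enter these correlations. The highest correlation was that of the Ntrk3 entry with Sorcs3 (Pearson r = 0.87, permutation p adjusted over 36 pairs = 0.00180; Spearman rho = 0.79, adjusted p = 0.0163, n = 16 libraries). It was 0.75 (adjusted p = 0.00936) without the 2 libraries farthest from the median of the Ntrk3 entry and 0.87 in replicates 2 to 4 alone. The Ntrk3 entry with Sort1, Sort1 with Sorcs3, and Bdnf with Sort1 followed, with r of 0.79, 0.77 and 0.75 and rho of 0.69, 0.74 and 0.68 (adjusted permutation p of r 0.00807, 0.00807 and 0.00666, of rho 0.0298, 0.0163 and 0.0302). Without the 2 farthest libraries r was 0.59, 0.65 and 0.56 (adjusted permutation p = 0.127, 0.120 and 0.146), and in replicates 2 to 4 alone it was 0.87, 0.87 and 0.80 (adjusted permutation p = 0.0112, 0.00324 and 0.0112). The Ntrk3 entry with Creb1, a pair named after its values were seen, gave r = 0.71 (adjusted permutation p = 0.00807) and rho = 0.64 (adjusted p = 0.0433), with r of 0.58 without the 2 farthest (adjusted permutation p = 0.127) and of 0.75 in replicates 2 to 4 (adjusted permutation p = 0.0112). Of the 36 pairs, 9 passed by r and 7 by both measures.

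The lowest correlation was between Bdnf and its receptor gene Ntrk2 (r = -0.73, adjusted permutation p = 0.00807; rho = -0.75, adjusted p = 0.0163, n = 16). Without the 2 farthest libraries it was -0.75 (adjusted p = 0.0269), and in replicates 2 to 4 alone it was -0.67 (adjusted permutation p = 0.0845). Ntrk2 and the Ntrk3 entry gave r = -0.63 (adjusted permutation p = 0.0310) and rho = -0.70 (adjusted p = 0.0298), with -0.62 and an adjusted p of 0.126 without the 2 farthest. The difference of Bdnf and of Ntrk2 between the genotypes, given above, is part of their correlation: in replicates 2 to 4 with each group's mean subtracted, r was 0.03 (exact permutation p within groups, adjusted over 36 pairs, 0.971). For the Ntrk3 entry it was then 0.71 with Sorcs3, 0.77 with Sort1 and -0.36 with Ntrk2, and none of the 7 pairs passed (adjusted exact permutation p of 0.528 to 0.971). Over the 12 libraries outside BgnKO fructose r was 0.66 for the Ntrk3 entry with Sorcs3 and -0.60 for Bdnf with Ntrk2, and none of the 7 passed there either (adjusted permutation p of 0.386 to 0.647). The genes most like each of the 9 over the 16 libraries, by Pearson r on the same scale, were Ddx27 (0.95), Nab2 (0.92) and Cap2 (0.91) for Bdnf, Ptprf, Il6st and Pdgfra (0.93 each) for Ntrk2, Mapk10 (0.96), Sprn (0.96) and Pcsk2 (0.95) for Sort1, and Snrnp200 (0.95), Ncoa6 (0.95) and Med14 (0.94) for Sorcs3. For the Ntrk3 entry they were Sbno1 (0.95) and Chd8 (0.94), for Creb1 Akap10 (0.95), Bclaf1 (0.94) and Senp6 (0.93), and for Crtc1 Iqsec2 (0.96), Zmiz2 (0.95) and Pitpnm2 (0.92). Ntf3 was nearest to Mrgbp (0.81), Ampd2 (0.81) and Sema6c (0.79), and Ngfr to Vwa5b1 (0.92), Col8a1 (0.89) and Rassf8 (0.88).

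**Figure D3:**
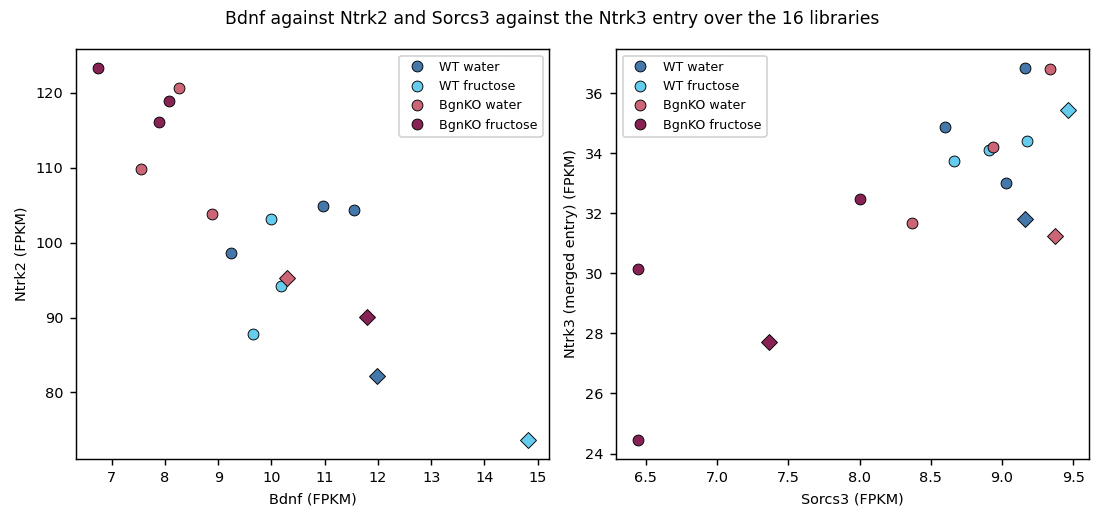
Left, Bdnf (x axis) against Ntrk2 (y axis), and right, Sorcs3 (x axis) against the Ntrk3 entry (y axis), in FPKM, with 1 point per library, coloured by group. Diamonds are replicate 1. The library with the lowest Bdnf (6.74 FPKM) has the highest Ntrk2 (123.3 FPKM), and the 4 BgnKO fructose libraries lie lowest for Sorcs3.

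The genes around the 9 were taken from 8 lists that cover other ligands and receptors, proneurotrophin processing, the sortilin family, p75 partners, Trk adaptors, kinase steps, CREB cofactors, and genes known to respond to CREB or BDNF. The lists were chosen with earlier results of these data known, so their shares and medians beside those of all genes describe the lists. Of 132 genes listed, 124 were in the table and 118 were tested. The ligand gene Ntf5 was below the filter, with group means of at most 0.365 FPKM. On water 2 of the 118 (1.69%) fell and 0 rose, where 0.387% of all tested genes passed in either direction. On fructose 5 (4.24%) fell and 0 rose, a share near the 3.76% of all genes that passed, of which 2.13% fell. Over both drinks 11 fell and 1 rose (10.2%), where 2.87% of all tested genes fell and 2.12% rose. For the drink in either genotype and for the interaction 0 passed limma's test, with 0, 16 and 1 of the 118 at an unadjusted p under 0.05 in WT, in BgnKO and for the interaction. Of all tested genes, 2.08%, 12.9% and 2.91% were, so the 16 lie near the share of all genes. With a term for replicate 1, 3, 22 and 31 of the 118 (2.54%, 18.6% and 26.3%) passed on water, on fructose and over both drinks, against 0.996%, 17.3% and 18% of all genes, and the share on fructose again lay near that of all genes.

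Of the 25 response genes, immediate early genes of neuronal activity included, 2 fell on water, 3 on fructose and 7 over both drinks. With a term for replicate 1, 7 of them fell and 1 rose on fructose, and 10 fell and 1 rose over both drinks, so that most of the calls with the term in these comparisons lay in the other lists. No test compared the lists. Egr1, an activity-induced zinc finger transcription factor, was 103.2 ± 10.9 FPKM in WT water and 92.8 ± 31.5 in WT fructose, against 53.2 ± 8.73 in BgnKO water and 38.5 ± 6.91 in BgnKO fructose (SD, n = 4 each). It fell by 0.95 on water and 1.20 on fructose on the log2 scale (SE 0.19 each, limma adjusted p = 0.0471 and 0.00374). Its 8 libraries of BgnKO, at 32.5 to 66.1 FPKM, overlapped those of WT only through WT fructose replicate 3 at 63.2. Nr4a3, an orphan nuclear receptor induced by CREB, fell by 0.53 on water and 0.68 on fructose (SE 0.10 each, adjusted p = 0.0358 and 0.00277), from 22.6 to 31.2 FPKM in the WT libraries to 15.2 to 21.5 in BgnKO. Its relative Nr4a1 was 22.8 to 51.4 FPKM in WT and 14.2 to 25.1 in BgnKO, and it fell on fructose (log2 -1.04, SE 0.20, adjusted p = 0.0104). On water neither Egr1 nor Nr4a3 passed in 8 of the 16 fits that left out a single library.

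Over both drinks Junb (log2 -0.53), Per1 (-0.52), Fos (-0.86) and Arc (-0.73), all activity-induced genes, also fell, with limma adjusted p of 0.0114 to 0.0449. Of the 25 response genes, 21 were lower in BgnKO on water and 23 on fructose, with medians of -0.29 and -0.23 against -0.00 and -0.01 over all tested genes. Between the drinks the list was also one-sided. On fructose 22 were lower than on water in WT and 21 in BgnKO, with medians of -0.12 and -0.14, and 0 passed. The medians over all tested genes were 0.01 and 0.01 there. Arc varied most among the WT fructose libraries, where it was 46.3, 87.4, 52.4 and 113.0 FPKM, against 34.1 to 48.8 in BgnKO fructose. Sst and Scg2, known CREB targets that encode secreted peptides, differed by -0.03 and -0.04 over both drinks and did not pass. The part of the astrocyte, microglial, meningeal and neuronal marker levels given above in these differences was not tested.

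Outside that list, 5 genes passed in a genotype comparison. Ppp3ca, a catalytic subunit of the phosphatase calcineurin, which acts on CRTC1, fell on fructose from 647.5 ± 56.1 to 441.4 ± 78.0 FPKM (log2 -0.56, SE 0.12, limma adjusted p = 0.0170). Irs2, an adaptor of insulin receptor signalling, fell there from 28.2 ± 2.90 to 22.2 ± 1.61 FPKM (log2 -0.33, SE 0.08, adjusted p = 0.0408). Over both drinks Camkk2, a kinase upstream of CaMKIV, and Mapk7, which encodes ERK5, fell by 0.24 and 0.25 on the log2 scale (adjusted p = 0.0253 and 0.0178), and Pik3r1, a regulatory subunit of PI3K, rose by 0.24 (adjusted p = 0.0110). Cpe, a processing enzyme that also binds proBDNF, was 1619 ± 139 FPKM in BgnKO fructose and 1307 ± 119 in WT fructose and did not pass (adjusted p = 0.0778).

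**Figure D4:**
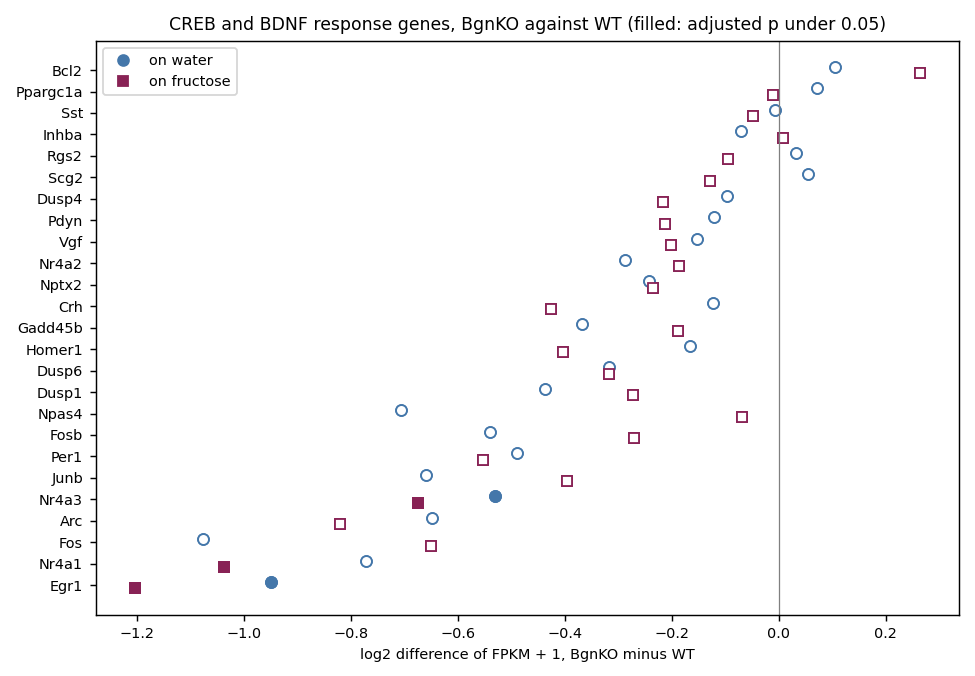
log2 difference of FPKM + 1 between BgnKO and WT (x axis) of the 25 response genes (y axis), on water (circles) and on fructose (squares). Filled points have an adjusted p under 0.05. Egr1 and Nr4a3 are filled on both drinks and Nr4a1 on fructose.

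The promoter windows of Nr4a1 and Nr4a3 are shown beside that of Bdnf because both genes fell and hold several cores, again in capitals, in the 250 bases before the start. The first is at chr15:101266596-101266845 and the second at chr4:48045055-48045304, both on the plus strand (RefSeq, GRCm38.p6).
Nr4a1: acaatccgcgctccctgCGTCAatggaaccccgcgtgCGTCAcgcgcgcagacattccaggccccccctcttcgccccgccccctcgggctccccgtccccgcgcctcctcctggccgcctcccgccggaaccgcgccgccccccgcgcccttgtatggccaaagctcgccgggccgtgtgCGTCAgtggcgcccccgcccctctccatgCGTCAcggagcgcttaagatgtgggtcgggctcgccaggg
Nr4a3: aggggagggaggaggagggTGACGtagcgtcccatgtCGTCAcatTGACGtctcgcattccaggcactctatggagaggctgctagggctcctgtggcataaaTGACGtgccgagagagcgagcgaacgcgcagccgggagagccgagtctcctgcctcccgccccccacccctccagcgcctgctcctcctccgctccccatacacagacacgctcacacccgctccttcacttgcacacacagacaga
Each held 4 cores. The window of their relative Nr4a2 also held 4, and Nr4a2 did not pass (log2 -0.24 over both drinks, SE 0.16, limma adjusted p = 0.412). Among other genes that fell over both drinks, Fos held 2, Junb 1 and Per1 1 in each window, while Dusp1 held 3 and did not pass. Whether the number of cores goes with the differences was not tested. Of the 19 response genes with a window, 15 held a core and 3, Dusp1, Sst and Scg2, the full element, against 19.8% and 1.77% of all genes with a window. Since the list was composed of genes known to respond to CREB or BDNF, the share describes the list.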

How the data were processed

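Poly-A RNA of 16 hippocampal libraries, 4 per group, was sequenced on a HiSeq 2500 from fragments of 200 to 400 bp, per the labels' protocols. The deposited values are FPKM per gene locus made by the authors. The submitters' processing notes name CASAVA 1.8.2, TopHat, Bowtie, Cufflinks, Cuffdiff and mm10, and no read depth was given. Of 27670 loci, 4269 had no gene name and were left out, and 711 names with several loci were summed, which left 22572 names, 659 of them joining several genes. All columns were mapped to a sample by name.

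Differences were tested with limma 3.58.1 (R 4.3.3, trended variance) on log2(FPKM + 1), over the 12648 genes whose mean reached 1 FPKM, in a model of 4 group means. Fold changes are on that scale, which understates changes of low genes. Adjusted p-values are Benjamini-Hochberg values over all genes tested, with a threshold of 0.05. Exact permutation tests used FPKM, and correlations used 100000 permutations (Python 3.11.15, pandas 2.3.3, scipy 1.17.1). In simulated FPKM for BgnKO water against WT water over 12648 genes, 96% of log2 changes of 1 and 71% of log2 changes of 0.5 were recovered, with 7 false calls among 174. The simulated noise was drawn independently for each gene and library, without the shift shared by the replicate 1 libraries. Smaller changes were not simulated. These shares therefore check the procedure and do not give its recovery or false calls in the real libraries.

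The 9 genes and all lists were chosen with earlier results of these data known. The text names the 9 genes, the called genes of the pathway lists (up to 4 per list by p, or up to 2 with values where none was called), the 4 highest and 2 lowest pairs, and the 3 genes most like each of the 9. Exceptions are stated where they occur or serve the promoter windows. Some genes that these rules or lists include are not reported here. Alternatives were a term for replicate 1, replicates 2 to 4 alone, a replicate block, a pseudocount of 0.1, no filter or a filter of 5 FPKM, median-ratio rescaling, the highest locus in place of the sum, only the groups compared, exact tests, and each library left out. Leaving out a pair of libraries, the test within replicates 2 to 4, the correlations without BgnKO fructose and those with group means subtracted were added after seeing the data. Libraries of the same number deviated together between water and fructose, with correlations of 0.118 to 0.699 in WT and 0.197 to 0.612 in BgnKO, highest for replicate 1. The drink results in the text come from the model of 4 group means, which does not pair the numbers. The replicate block, which does, was an alternative. Deviations of replicates 2 to 4 from their own means correlated at 0.003 to 0.135 in WT and -0.042 to 0.314 in BgnKO, so for these replicates the pairing holds only weakly or not at all. It comes from the data and not from the labels. Gene positions are from GENCODE vM21 and promoter windows from RefSeq GRCm38.p6, the build that mm10 names.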

Additional observations from a re-analysis of the deposited data

Results flagged for a closer look

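Replicate 1 of WT fructose, with 14.8 FPKM of Bdnf, stood far above the other 3 libraries of its group, which were 9.65 to 10.2 FPKM. It was singled out because its gap to the nearest library took up most of the group's range. It was 1 of 36 groups of 4 libraries examined for the 9 genes, and chance flags about 1 in 20 such groups. The same library had Bgn in the range of the BgnKO libraries, and the lowest summed meningeal and choroid plexus markers of the 16 libraries. The part of these markers in its Bgn and Bdnf levels was not tested. Without this library, the Bdnf difference between genotypes was -0.21 on fructose and -0.25 over both drinks on the log2 scale (limma adjusted p = 0.407 and 0.143). That fit had no term for replicate 1. It kept replicate 1 of BgnKO fructose, at 11.8 FPKM, while WT fructose had no replicate 1 left. Replicates 2 to 4 of BgnKO fructose were 6.74 to 8.07 FPKM.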

How the results depend on the processing

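Of the 9 genes, 1 passed on fructose and 0 over both drinks. On fructose 4 passed with a term for replicate 1, 4 with a replicate block, 3 in replicates 2 to 4, 0 with only the groups compared, 0 in 14 libraries (without WT fructose replicate 1 and BgnKO fructose replicate 4), 2 there with the term, and 0 to 3 with single libraries left out. Over both drinks the counts were 3 with the term, 3 with the block, 2 in replicates 2 to 4, 2 in 14 libraries with the term, and 0 to 3 with single libraries left out. The 3 came without BgnKO fructose replicate 1 in both comparisons. Of the pathway genes, 2 passed on water and 1 under replicates 2 to 4, no filter, a filter of 5 FPKM, median-ratio rescaling, only the groups compared or 14 libraries, with 0 to 3 when single libraries were left out (0 without any 1 of WT water replicates 2 to 4, BgnKO water replicates 1, 2 and 4, WT fructose replicate 2 or BgnKO fructose replicate 3). On fructose 5 passed, against 22 with the term, 15 in replicates 2 to 4, 26 with the block, 1 with only the groups compared and 3 to 10 with single libraries left out, the 3 without BgnKO fructose replicate 3 or 4 and the 10 without BgnKO fructose replicate 1. Over both drinks 12 passed, against 31 with the term, 23 in replicates 2 to 4, 32 with the block and 19 in 14 libraries with the term. The cause was not tested. The model of 4 group means took the numbers as pairs in no comparison. Between genotypes same-number correlations reached down to -0.04 on water and 0.087 on fructose. The block changed no call of the 9 genes between drinks.

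Log2 differences that changed sign passed no test. In replicates 2 to 4 they were Sorcs3 on water (-0.0079) and, for the drink in WT, Bdnf (-0.078), the Ntrk3 entry (-0.032), Sorcs3 (-0.0016) and Crtc1 (-0.0015). Median-ratio rescaling turned Sorcs3 for the drink in WT (-0.0011), a pseudocount of 0.1 turned Ngfr for the drink in BgnKO (-0.025), and FPKM means turned Ntf3 over both drinks (-0.0031). In 14 libraries they were Creb1 on fructose (0.071) and over both drinks (0.042), Bdnf (-0.12) and Sorcs3 (-0.0100) for the drink in WT, and Bdnf (0.060) and Ngfr (-0.12) for the drink in BgnKO. The interactions of Bdnf (0.18), Ngfr (-0.013), Sort1 (0.0030), Creb1 (0.059) and Crtc1 (-0.14) also turned there. With the term as well they were Ntf3 on fructose (0.015), Bdnf (-0.041) and the Ntrk3 entry (-0.035) for the drink in WT, Bdnf (0.033) and Ngfr (-0.082) for the drink in BgnKO, and the interaction of Bdnf (0.074).

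With single libraries left out, the genotype difference on water ranged from -0.073 to 0.0084 for the Ntrk3 entry, -0.017 to 0.033 for Sorcs3 and -0.073 to 0.13 for Creb1. On fructose it was -0.21 to 0.012 for Creb1 and -0.22 to 0.048 for Crtc1, and over both drinks -0.035 to 0.048 for Ntf3 and -0.099 to 0.020 for Creb1. For the drink in WT it was -0.12 to 0.070 for Bdnf, -0.018 to 0.050 for the Ntrk3 entry, -0.28 to 0.042 for Ngfr, -0.0100 to 0.028 for Sorcs3, -0.15 to 0.083 for Creb1 and -0.15 to 0.20 for Crtc1. For the drink in BgnKO it was -0.18 to 0.060 for Bdnf, -0.12 to 0.19 for Ngfr and -0.014 to 0.33 for Crtc1. The interaction ranged from -0.19 to 0.084 for Bdnf, -0.028 to 0.37 for Ngfr, -0.23 to 5.36e-05 for Creb1 and -0.071 to 0.30 for Crtc1. Without read depth, no counting error could be given for Ngfr, the lowest of the 9 genes.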
